A study of Mus musculus with 12 samples.

Results

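The genes of the urea cycle and of glutamine and glutamate metabolism were followed in mouse liver after ER stress, in animals with and without ATF6α. The set holds 10 genes named by their function: Nags, Cps1, Otc, Ass1, Asl, Arg1, Slc25a15, Glul, Gls2 and Glud1. Of these, 9 had a probe set that the platform table links to that symbol alone, with 14 such probe sets among the 45037 tested, and they stood beside 18193 genes measured in the same way. Gls2, the glutaminase of hepatocytes, was linked to no probe set by that symbol and was not analysed here. Where a gene had several probe sets, the brightest over all 12 arrays gave its main value.

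The liver removes ammonia by a pair of routes. Hepatocytes around the portal vein turn it into urea through a cycle that starts in mitochondria with carbamoyl phosphate and ends with arginase in the cytosol, while the few hepatocytes that ring the central vein catch what is left by making glutamine. Glutaminase and glutamate dehydrogenase release ammonia from glutamine and glutamate and so link amino acid breakdown to both routes.

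Liver RNA was measured on Affymetrix arrays, 1 per animal, in 4 groups of 3 mice: Atf6a-/- mice given tunicamycin (TM), wild-type (+/+) mice given TM, Atf6a-/- mice given vehicle and wild-type mice given vehicle. TM, which blocks N-linked glycosylation and so burdens the ER with misfolded protein, was injected into the peritoneum at 1 mg/kg in 150 mM dextrose, and dextrose alone was the vehicle. Livers were taken after 34 h by the titles and protocol of the samples, although their source field names a shorter exposure. Ages and sexes varied and were not given for single animals, all mice were fasted for some hours before sacrifice, and the labels do not say which part of Atf6a the mutant allele lacks. A homogenate of whole liver cannot tell fewer cells of a type from less RNA per cell. All levels below are deposited log2 values after RMA, and a gene was called higher or lower when limma gave an adjusted p under 0.05 with a change of over 1.5-fold.

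The targeted gene, Atf6, measured 9.60, 9.81 and 9.23 in Atf6a-/- TM livers and 9.30, 9.72 and 9.49 in wild-type TM livers, against 6.88, 6.85 and 6.60 in Atf6a-/- vehicle livers and 8.54, 8.42 and 8.49 in wild-type vehicle livers. It was lower in Atf6a-/- than in wild-type livers after vehicle (-1.71 ± 0.15, adjusted p = 0.00611), while after TM the genotypes overlapped (0.04 ± 0.15, adjusted p = 0.922), and whether its probe set lies outside the deleted part is not known. The highest array median, 4.71, served as the level under which a probe set was read as dim. Xist, transcribed from the inactive X, had high levels in animal 1 of the Atf6a-/- TM, Atf6a-/- vehicle and wild-type vehicle groups (12.29, 12.39 and 12.19) and between 5.37 and 6.68 in every other animal, the 3 wild-type TM livers included. On the first principal component of all probe sets, wild-type TM animal 2 lay at 29.5 and the other wild-type TM animals at -12.9 and -11.9. The hybridisation spike-ins were dimmest on the Atf6a-/- TM arrays, at 8.43 to 8.50. On wild-type TM arrays they ran from 8.54 to 8.86. This range overlapped with those after vehicle, 8.81 to 9.04 in Atf6a-/- and 8.84 to 9.21 in wild-type livers. Their part in the results was not tested, apart from the scalings and omissions given further on.

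TM lowered every measured gene, by its main probe set, in Atf6a-/- livers. In wild-type livers it lowered Glul, Glud1 and Otc, and the differences of the other 6 genes did not pass. For Ass1 the main probe set had a low signal, and the far brighter one shared with Gm5424 was called in no comparison. All 9 measured genes were called lower by TM in Atf6a-/- livers, where 12.8% of all genes were called lower and 15.2% higher. In wild-type livers 3 of the 9 were called lower (Otc, Glul and Glud1) and 0 higher, where 3.86% of all genes were called lower and 3.45% higher. Set against each other after TM, Atf6a-/- livers were lower than wild-type livers in 8 of the 9, with Glul the exception, and higher in 0, against 8.45% of all genes lower and 11.3% higher. The interaction, which tests whether TM acted differently in the 2 genotypes, was called for 7 of the 9, all toward a larger fall in Atf6a-/- livers, where 6.69% of all genes were called in that direction and 7.56% in the other. After vehicle, 0 of the 9 differed between the genotypes by limma, where 0.0055% of all genes were called in either direction.

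The median difference over the 9 genes was -2.66 for TM against vehicle in Atf6a-/- livers and -0.32 in wild-type livers, while the medians of all genes were -0.015 and -0.023. Between the genotypes it was -1.89 after TM and 0.01 after vehicle, with medians of all genes of 0.004 and 0.001. These comparisons share samples, since both TM groups and both vehicle groups enter more than 1 of them. The lowest adjusted p after vehicle was 1, and Ass1 alone had an unadjusted p under 0.05. No call was made there in any of the 27 alternatives.

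**Figure D1:**
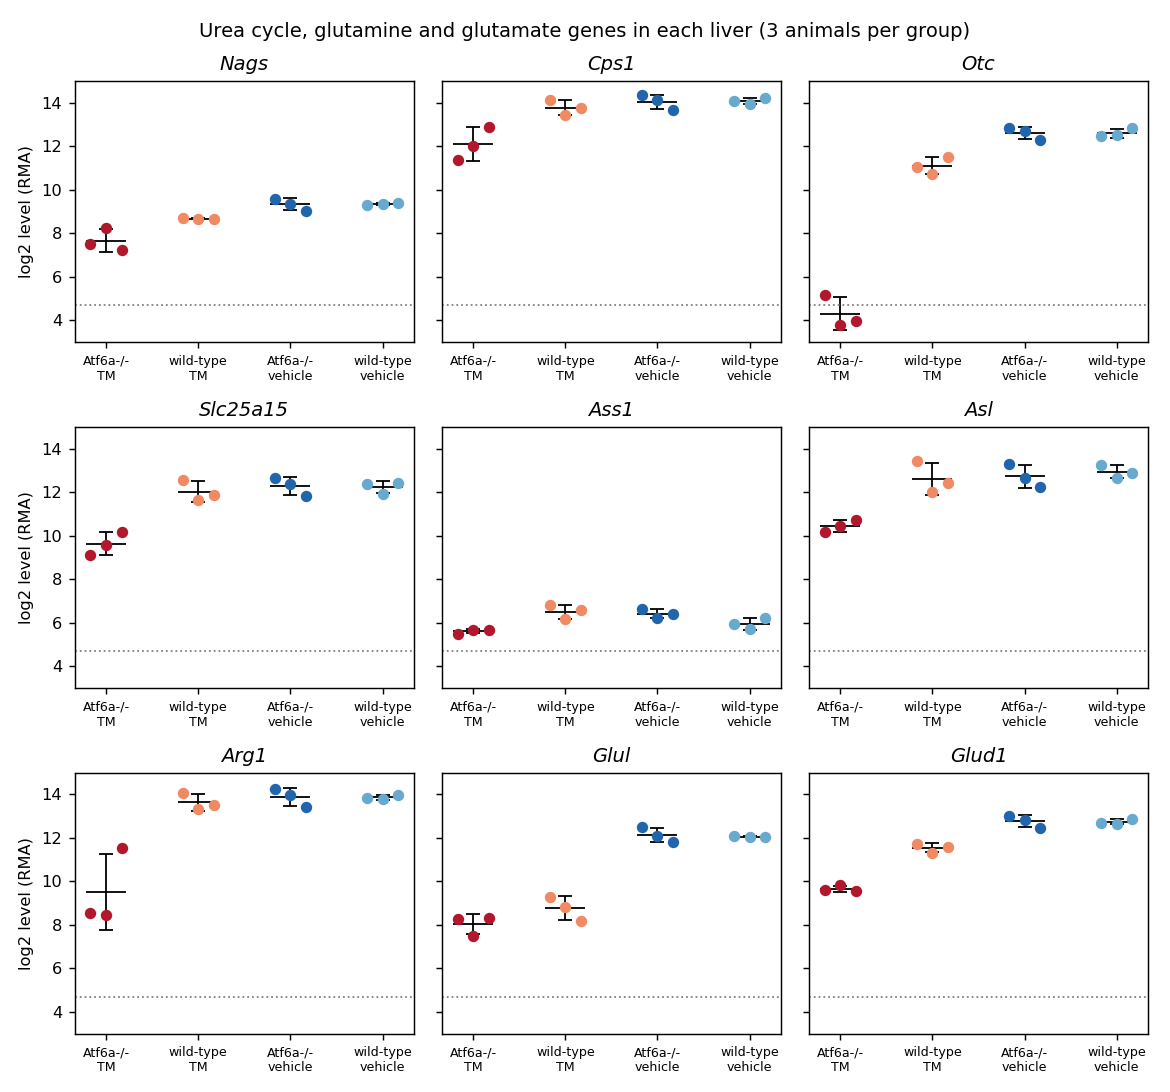
Log2 level after RMA (vertical axis, same scale in every panel) of the 9 measured genes in each liver, with the 4 groups along the horizontal axis, points for the 3 animals of a group, a bar at the group mean and whiskers of 1 SD. The dotted line marks the highest array median of 4.71. The Atf6a-/- TM mean is the lowest in every panel and for Otc lies under the line, with 2 of the 3 animals, while Glul is low in both TM groups and its TM groups overlap.

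The cycle is fed by 2 mitochondrial enzymes. Nags makes N-acetylglutamate, the molecule that switches on carbamoyl phosphate synthetase. Its log2 levels were 7.5, 8.24 and 7.24 in Atf6a-/- TM livers and 8.69, 8.65 and 8.66 in wild-type TM livers, against 9.59, 9.36 and 9.04 in Atf6a-/- vehicle livers and 9.28, 9.36 and 9.41 in wild-type vehicle livers. Every Atf6a-/- TM liver lay under every wild-type TM liver, and every TM liver lay under the vehicle livers. Nags was 3.19-fold lower with TM in Atf6a-/- livers (-1.67 ± 0.21, adjusted p = 7.02e-05) and 2.01-fold lower in Atf6a-/- than in wild-type livers after TM (-1.0 ± 0.21, adjusted p = 0.00513). The difference in wild-type livers, -0.69 ± 0.21, did not pass (adjusted p = 0.0831), nor did the interaction (-0.99 ± 0.30, adjusted p = 0.0588). Both sat near the threshold: the wild-type difference passed in 6 of 27 alternatives and the interaction in 7 of 24.

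Cps1, carbamoyl phosphate synthetase itself, fixes ammonia and is among the most abundant proteins of liver mitochondria. It stood at 11.35, 12.00 and 12.91 in Atf6a-/- TM livers and at 14.15, 13.44 and 13.74 in wild-type TM livers, against 14.34, 14.11 and 13.68 in Atf6a-/- vehicle livers and 14.10, 13.96 and 14.23 in wild-type vehicle livers. The Atf6a-/- TM livers were apart from all others and differed widely among themselves (SD 0.79), and the other 3 groups overlapped. Cps1 was 3.88-fold lower with TM in Atf6a-/- livers (-1.96 ± 0.32, adjusted p = 0.000556) and 3.23-fold lower than in wild-type livers after TM (-1.69 ± 0.32, adjusted p = 0.00279), while wild-type livers differed by -0.32 ± 0.32 (adjusted p = 0.702). Its interaction passed narrowly (-1.64 ± 0.46, adjusted p = 0.0412) and was lost in 11 of 24 alternatives, 9 of them the omission of a single animal, with adjusted p of up to 0.0947.

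Otc, ornithine transcarbamylase, joins carbamoyl phosphate to ornithine and showed the largest fall of the 9 genes. Its log2 levels were 5.17, 3.79 and 3.97 in Atf6a-/- TM livers and 11.04, 10.74 and 11.52 in wild-type TM livers, against 12.85, 12.70 and 12.28 in Atf6a-/- vehicle livers and 12.46, 12.51 and 12.83 in wild-type vehicle livers. Of the Atf6a-/- TM livers, 2 lay under the dim limit and animal 1 just above it, the wild-type TM livers lay in between, and neither TM group overlapped with its vehicle group or with the other TM group. Because the mean of 4.31 was under the dim limit, the folds are lower bounds: Otc was at least 239-fold lower with TM in Atf6a-/- livers (-8.30 ± 0.32, adjusted p = 1.10e-08) and at least 83.9-fold lower than in wild-type livers after TM (-6.79 ± 0.32, adjusted p = 1.33e-07). In wild-type livers TM lowered it 2.83-fold (-1.50 ± 0.32, adjusted p = 0.0141), and the interaction was -6.80 ± 0.45 (adjusted p = 6.41e-06).

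In wild-type livers the call did not survive the omission of vehicle animal 3 (adjusted p = 0.0636) or TM animal 2 (adjusted p = 0.0504). A further probe set of Otc gave at least 108-fold and at least 32.9-fold for the first 2 of these and -1.63 for the wild-type difference, all called, and the dimmest of its 3 probe sets, with a mean of 5.97, gave -1.53, -1.02 and, in wild-type livers, -0.46, which did not pass (adjusted p = 0.137). Otc lies on chromosome X (10252230 to 10321024 in GRCm38.p6).

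Slc25a15 carries ornithine into the mitochondrion, where Otc uses it, and returns citrulline to the cytosol. It measured 9.13, 9.56 and 10.18 in Atf6a-/- TM livers and 12.56, 11.62 and 11.89 in wild-type TM livers, against 12.66, 12.37 and 11.81 in Atf6a-/- vehicle livers and 12.35, 11.92 and 12.43 in wild-type vehicle livers. Only the Atf6a-/- TM livers stood apart, and the other 3 groups overlapped one another. TM lowered Slc25a15 by 6.32-fold in Atf6a-/- livers (-2.66 ± 0.30, adjusted p = 3.17e-05) and left it at -0.21 ± 0.30 in wild-type livers (adjusted p = 0.811). The genotypes differed by -2.4 ± 0.30 after TM (adjusted p = 0.000167), and the interaction was -2.45 ± 0.43 (adjusted p = 0.00356). Its second probe set gave the same calls, with -2.10 for TM in Atf6a-/- livers and 0.18 in wild-type livers.

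In the cytosol, Ass1 joins citrulline to aspartate, Asl splits the product into arginine and fumarate, and Arg1 releases urea. Asl measured 10.16, 10.45 and 10.71 in Atf6a-/- TM livers and 13.43, 11.99 and 12.44 in wild-type TM livers, against 13.29, 12.67 and 12.22 in Atf6a-/- vehicle livers and 13.24, 12.66 and 12.90 in wild-type vehicle livers. Again the Atf6a-/- TM livers were below all others, and the wild-type TM livers spread across the range of the vehicle livers. Asl was 4.87-fold lower with TM in Atf6a-/- livers (-2.29 ± 0.34, adjusted p = 0.000269) and 4.53-fold lower than in wild-type livers after TM (-2.18 ± 0.34, adjusted p = 0.000764). The wild-type difference was -0.31 ± 0.34 (adjusted p = 0.73), and 0.00 without wild-type TM animal 2. The interaction (-1.97 ± 0.49, adjusted p = 0.0227) was lost in 4 of 24 alternatives, all of them the omission of 1 animal: wild-type vehicle animal 2 or 3, Atf6a-/- vehicle animal 1 or Atf6a-/- TM animal 1 (adjusted p = 0.0597, 0.0534, 0.05 and 0.0554).

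Arg1, arginase 1, had log2 levels of 8.54, 8.45 and 11.55 in Atf6a-/- TM livers and 14.06, 13.32 and 13.53 in wild-type TM livers, against 14.23, 13.97 and 13.43 in Atf6a-/- vehicle livers and 13.82, 13.78 and 13.99 in wild-type vehicle livers. Animals 1 and 2 of the Atf6a-/- TM group lay close together and animal 3 well above them, still under every other liver. TM lowered Arg1 by 20.5-fold in Atf6a-/- livers (-4.36 ± 0.63, adjusted p = 0.000196), and Atf6a-/- livers had 17.4-fold less than wild-type livers after TM (-4.12 ± 0.63, adjusted p = 0.000617). In wild-type livers the difference was -0.22 ± 0.63 (adjusted p = 0.914), and the interaction was -4.14 ± 0.89 (adjusted p = 0.0111). Without Atf6a-/- TM animal 3, the difference between TM and vehicle in Atf6a-/- livers was -5.38 ± 0.24 (adjusted p = 1.34e-07). Over the 27 alternatives this difference ran from -5.38 to -3.83.

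For Ass1 the probe set linked to that symbol alone had a low signal, with a mean of 6.12 over the 12 arrays but above the dim limit in every animal. It read 5.50, 5.68 and 5.64 in Atf6a-/- TM livers and 6.79, 6.15 and 6.56 in wild-type TM livers, against 6.65, 6.2 and 6.40 in Atf6a-/- vehicle livers and 5.92, 5.70 and 6.23 in wild-type vehicle livers. The Atf6a-/- TM livers were below all others, with the lowest wild-type vehicle liver, at 5.70, just above them. TM lowered it 1.75-fold in Atf6a-/- livers (-0.81 ± 0.18, adjusted p = 0.00416), which no longer passed when each array was shifted by the mean of its spike-ins (-0.32, adjusted p = 0.0977). In wild-type livers it differed upward by 0.55 ± 0.18, which did not pass (adjusted p = 0.101, and under 0.05 in 3 of 27 alternatives). The genotypes differed by -0.89 ± 0.18 after TM (adjusted p = 0.00367), and the interaction was -1.36 ± 0.25 (adjusted p = 0.00494).

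A far brighter probe set is linked to Ass1 and to Gm5424 together, and its signal cannot be assigned to either. It read 13.69, 13.62 and 14.08 in Atf6a-/- TM livers and 14.42, 14.05 and 14.21 in wild-type TM livers, against 14.42, 14.19 and 13.82 in Atf6a-/- vehicle livers and 14.29, 14.11 and 14.23 in wild-type vehicle livers. All 4 groups overlapped at least 1 other near the top of the array's range, whose highest value was 14.91. It was called in none of the 5 comparisons: the difference with TM was -0.35 ± 0.17 in Atf6a-/- livers (adjusted p = 0.151) and 0.02 ± 0.17 in wild-type livers (adjusted p = 0.981), and the genotypes differed by -0.43 ± 0.17 after TM (adjusted p = 0.103).

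**Figure D2:**
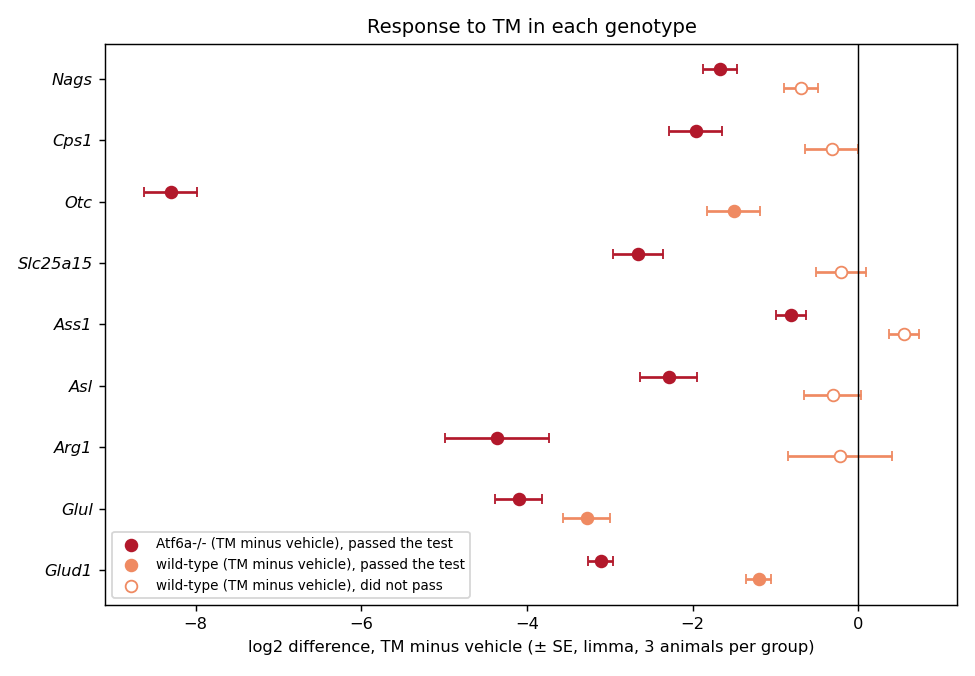
Log2 difference between TM and vehicle (horizontal axis, ± SE from limma, 3 animals per group) for each measured gene, with Atf6a-/- in dark red above wild-type in orange and open symbols where the test was not passed. All 9 Atf6a-/- values lie left of 0, from -0.81 for Ass1 to -8.30 for Otc, whereas 6 of the 9 wild-type values did not pass. Glul, at -4.10 and -3.28, shows the closest pair among the genes with a large fall.

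Glul, glutamine synthetase, is the enzyme of the other route and is made by the hepatocytes around the central vein. Its log2 levels were 8.29, 7.51 and 8.32 in Atf6a-/- TM livers and 9.30, 8.82 and 8.20 in wild-type TM livers, against 12.49, 12.11 and 11.82 in Atf6a-/- vehicle livers and 12.07, 12.06 and 12.04 in wild-type vehicle livers. Both TM groups lay at least 2 units under both vehicle groups, and the TM groups overlapped each other. TM lowered Glul 17.2-fold in Atf6a-/- livers (-4.10 ± 0.28, adjusted p = 5.50e-07) and 9.71-fold in wild-type livers (-3.28 ± 0.28, adjusted p = 4.42e-05). The genotypes differed by -0.74 ± 0.28 after TM, which did not pass (adjusted p = 0.0932), and the interaction was -0.82 ± 0.39 (adjusted p = 0.255). The genotype difference passed in 4 of 27 alternatives. They included quantile normalization again (adjusted p = 0.0484), cyclic loess (0.0449) and the fit without wild-type TM animal 3 (0.0231). Another was a scaling to Btf3 and Ppia, which served the study's PCR as reference genes (0.00274). The Ppia probe set used for this scaling is linked to another gene as well. The second probe set of Glul gave -4.69 with TM in Atf6a-/- livers and -3.93 in wild-type livers, and did not pass between the genotypes after TM (-0.67 ± 0.39, adjusted p = 0.316).

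Glud1, glutamate dehydrogenase, releases ammonia from glutamate in mitochondria. It stood at 9.59, 9.83 and 9.57 in Atf6a-/- TM livers and at 11.74, 11.32 and 11.59 in wild-type TM livers, against 13.01, 12.83 and 12.47 in Atf6a-/- vehicle livers and 12.70, 12.66 and 12.88 in wild-type vehicle livers. The levels fell into 3 tiers with no overlap, Atf6a-/- TM livers lowest, wild-type TM livers in the middle and the vehicle livers of both genotypes together on top. TM lowered Glud1 8.61-fold in Atf6a-/- livers (-3.11 ± 0.15, adjusted p = 5.05e-08) and 2.29-fold in wild-type livers (-1.20 ± 0.15, adjusted p = 0.000559). The genotypes differed by -1.89 ± 0.15 after TM (adjusted p = 6.02e-06), and the interaction of -1.91 ± 0.21 (adjusted p = 0.00021) held in all 24 alternatives. Its second probe set gave -3.47 in Atf6a-/- livers, -1.65 in wild-type livers and -1.80 between the genotypes after TM.

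Otc and Glul mark the ends of the pattern, Otc with the largest difference between the genotypes after TM and Glul with a large fall in both, and the sequences before their starts are therefore shown. Both are given 5′ to 3′ on the plus strand from the RefSeq promoter table (GRCm38.p6), and only bases before the annotated gene are printed, 175 for Otc (chrX:10252055-10252229) and 250 for Glul (chr1:153899679-153899928). Lower case is used throughout, since none of the motifs searched was found:
Otc: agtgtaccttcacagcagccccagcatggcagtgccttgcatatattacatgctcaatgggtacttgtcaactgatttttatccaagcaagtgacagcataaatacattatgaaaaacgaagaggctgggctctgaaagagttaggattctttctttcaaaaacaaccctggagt
Glul: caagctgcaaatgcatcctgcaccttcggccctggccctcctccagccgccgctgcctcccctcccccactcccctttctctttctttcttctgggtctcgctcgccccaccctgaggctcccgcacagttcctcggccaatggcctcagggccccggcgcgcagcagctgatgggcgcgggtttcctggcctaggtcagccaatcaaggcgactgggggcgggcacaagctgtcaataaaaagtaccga
The bases G and C made up 41.7% of the Otc stretch and 64.8% of the Glul stretch.

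The table held promoters of 6 of the 10 genes, Nags, Otc, Ass1, Slc25a15 (2 starts), Glul and Glud1. In the 250 bases before each of these starts, both strands were searched for TTGCNNAA (C/EBP), CAAAGTCCA (HNF4), TGATGNAAT (an ATF4 site), TGACGTGG (a UPR element) and TATAAA (the TATA box). None of these words contains another. There were 0 matches. Among 32851 promoters of that length, 9.56% held the first, 0.384% the HNF4 word, 0.816% the ATF4 word, 0.563% the UPR element and 12.4% the TATA box. That there was no match says only that these letters are not in these windows.

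**Figure D3:**
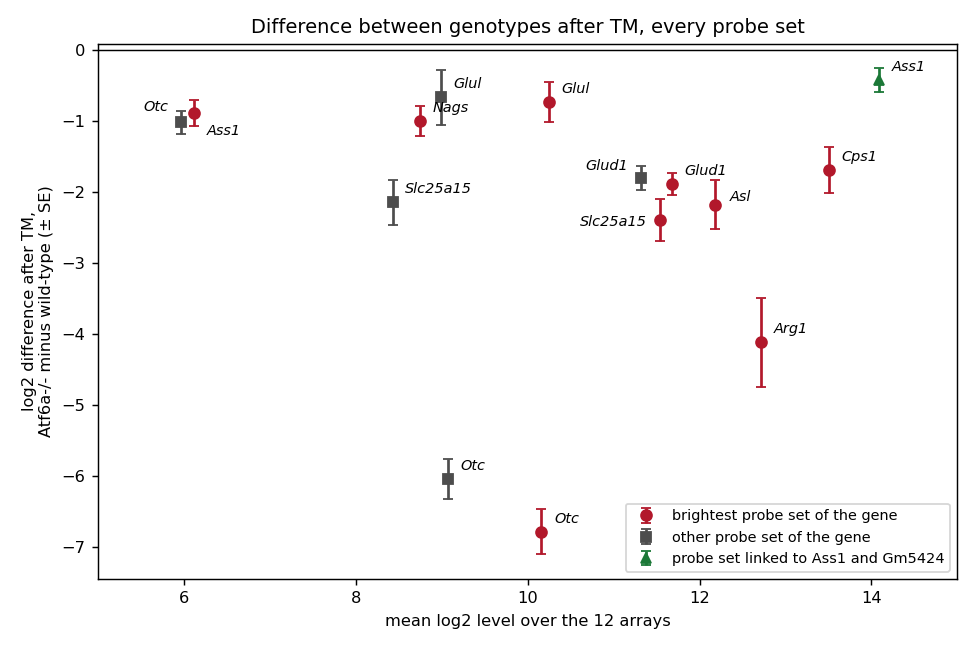
Log2 difference between Atf6a-/- and wild-type livers after TM (vertical axis, ± SE) against the mean log2 level over the 12 arrays (horizontal axis) for the 14 single-gene probe sets and the probe set shared by Ass1 and Gm5424. Circles are the brightest probe set of a gene, squares the others and the triangle the shared one. All lie under 0, 12 of the 14 were called, and the 2 brighter Otc probe sets lie lowest at -6.79 and -6.05, values that carry Atf6a-/- TM means under the dim limit.

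Other probe sets of a gene gave the same calls, except the one of Otc with the lowest signal, which did not pass in wild-type livers. With TM, 14 of 14 were called lower in Atf6a-/- livers, where 4135 of all 45037 probe sets were called lower and 5345 higher, and 6 of 14 in wild-type livers, where 1174 were called lower and 1179 higher. After TM 12 of 14 were lower in Atf6a-/- than in wild-type livers, against 2633 lower and 3825 higher of all. The interaction was called lower for 11 of 14, against 2033 lower and 2532 higher of all. Correlations across the 12 arrays, which share the 4 group means, are given as a description without a test. The levels of Cps1, Slc25a15, Asl and Arg1 ran closely together. Cps1 correlated with Slc25a15, Arg1 and Asl at r = 0.981, 0.976 and 0.951, and Slc25a15 with Asl at 0.982. Glul was farther from them, with r = 0.725 to Cps1 and Slc25a15, 0.713 to Asl and 0.69 to Arg1, and its closest partner was Glud1 at 0.898. Nags and Otc did not follow this division. Nags was at 0.755 with Arg1 and 0.816 with Cps1, against 0.839 with Glul. Otc was at 0.887 with Cps1 and 0.938 with Slc25a15, against 0.792 with Glul. Both were closest to Glud1, at 0.964 and 0.966. Ass1, by its single-gene probe set, had the lowest values, down to 0.281 with Glul.

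Among 6585 other genes with a mean level of at least 7 (6586 for Ass1), the closest to Otc were Slc10a1, the bile acid uptake transporter of hepatocytes, Pbld2 and Ces1c (r = 0.998, 0.997 and 0.996 over the 12 arrays). For Cps1 they were Tdo2, which opens tryptophan breakdown, Cfhr2 and Serpina1b (0.991, 0.988 and 0.986), and for Arg1 Cyp2e1, Gys2, the liver glycogen synthase, and Fgg (0.99, 0.988 and 0.987). Slc25a15 lay nearest Asgr1, a subunit of the hepatocyte asialoglycoprotein receptor, Acad11 and Sephs2 (0.991, 0.988 and 0.988), and Asl nearest Rmnd5a, Lpgat1 and Aass (0.986, 0.984 and 0.983). For Nags they were Maf, Mtus1 and Dynll2 (0.983, 0.982 and 0.982), for Glul Dgkz, Igfals and Thrsp (0.981, 0.98 and 0.979), and for Glud1 Pla1a, Aco1 and Alad (0.997, 0.995 and 0.994). The single-gene probe set of Ass1 had looser neighbours, Rnf125, Papola and Ocln (0.888, 0.888 and 0.876). The group means enter all of these values. By rank correlation (Spearman) Arg1 was at 0.825 with Cyp2e1 and 0.72 with Gys2, and Glul at 0.79 with Igfals. The other pairs had 0.839 to 0.979.

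Genes that supply the cycle or draw on it were called in both directions. Of 13 measured, 3 were called higher and 5 lower with TM in Atf6a-/- livers (median -0.25). In wild-type livers 0 were higher and 1 lower (median 0.08). Between Atf6a-/- and wild-type livers after TM, 2 were higher and 5 lower. Over all genes, the shares called higher and lower were 15.2% and 12.8% for TM in Atf6a-/- livers. They were 3.45% and 3.86% in wild-type livers and 11.3% and 8.45% between the genotypes after TM. Car5a, the mitochondrial carbonic anhydrase that supplies bicarbonate to Cps1, fell most. Its log2 levels were 4.79, 4.71 and 4.88 in Atf6a-/- TM livers and 9.40, 8.47 and 9.60 in wild-type TM livers, against 10.76, 10.20 and 10.15 in Atf6a-/- vehicle livers and 10.23, 10.19 and 10.56 in wild-type vehicle livers. In Atf6a-/- TM livers the signal was thus at the dim limit, and neither TM group overlapped with another group. The differences were -5.58 ± 0.25 with TM in Atf6a-/- livers (adjusted p = 3.41e-08), -1.17 ± 0.25 in wild-type livers (adjusted p = 0.0157, lost in 3 of 27 alternatives, the fit without wild-type vehicle animal 3 among them) and -4.36 ± 0.25 between the genotypes after TM (adjusted p = 6.09e-07).

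Aqp9, a channel for glycerol and urea, fell by 2.24 ± 0.14 with TM in Atf6a-/- livers (adjusted p = 3.13e-07), and Slc7a2, a transporter of cationic amino acids such as arginine, by 1.51 ± 0.31 (adjusted p = 0.00233). With the mean of all its probe sets the Slc7a2 difference was -0.73 and did not pass (adjusted p = 0.0711). Slc25a22, a mitochondrial glutamate carrier, rose there by 1.06 ± 0.21 (adjusted p = 0.00188), and Mdh2, mitochondrial malate dehydrogenase, by 0.91 ± 0.20 (adjusted p = 0.00428). Both calls were lost with the scaling to Btf3 and Ppia. Arg2, the mitochondrial arginase, was called higher (adjusted p = 0.000102), a call lost with the scaling to Btf3 and Ppia (adjusted p = 0.137) and with the mean of its probe sets, and it was under the dim limit throughout, so that no fold is given, with means of 4.35 in Atf6a-/- TM livers and 3.71 in wild-type TM livers, against 3.52 in Atf6a-/- vehicle livers and 3.57 in wild-type vehicle livers.

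Genes around glutamine, proline and ornithine moved in both directions. Of 18 measured, 7 were called higher and 8 lower with TM in Atf6a-/- livers (median 0.13). In wild-type livers 4 were higher and 2 lower (median 0.21), and 4 were higher and 8 lower in Atf6a-/- than in wild-type livers after TM. The shares of all genes called higher and lower were 15.2% and 12.8%, 3.45% and 3.86%, and 11.3% and 8.45%, in that order. Gfpt1, which opens the hexosamine pathway with glutamine as its nitrogen donor, measured 12.14, 12.41 and 12.21 in Atf6a-/- TM livers and 10.52, 10.93 and 9.65 in wild-type TM livers, against 7.96, 7.74 and 7.07 in Atf6a-/- vehicle livers and 7.03, 7.26 and 7.36 in wild-type vehicle livers. It rose in both genotypes without overlap, by 4.66 ± 0.29 in Atf6a-/- livers (adjusted p = 2.94e-07) and by 3.15 ± 0.29 in wild-type livers (adjusted p = 7.73e-05). Cad, which starts pyrimidine synthesis, rose by 3.03 ± 0.36 in Atf6a-/- livers (adjusted p = 4.21e-05) and by 2.4 ± 0.36 in wild-type livers (adjusted p = 0.00172).

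Aldh18a1, which makes the proline and ornithine precursor from glutamate, was under the dim limit in both vehicle groups, with means of 4.16 and 3.96 in Atf6a-/- and wild-type livers. After TM it read 9.85, 10.01 and 9.75 in Atf6a-/- livers and 4.39, 10.60 and 7.82 in wild-type livers, so that the wild-type animals spanned nearly the whole range. The rise of at least 35.8-fold in Atf6a-/- livers passed (adjusted p = 0.00137), the wild-type difference did not (adjusted p = 0.0687), and neither did the interaction (adjusted p = 0.514). The fitted Atf6a-/- difference was 5.72, and 2.92 with the mean of its probe sets. Asns, asparagine synthetase, was called higher with TM in Atf6a-/- livers (2.64 ± 0.59, adjusted p = 0.00439) and in wild-type livers (2.22 ± 0.59, adjusted p = 0.0445), the wild-type call being lost in 11 of 27 alternatives. Without wild-type vehicle animal 1 it was 1.59 and without animal 3 it was 2.82, and without Atf6a-/- vehicle animal 1 the Atf6a-/- difference was 2.05.

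Slc1a2, a glutamate transporter that shares the pericentral cells with Glul, fell by 4.57 ± 0.23 with TM in Atf6a-/- livers (adjusted p = 7.28e-08) and by 1.51 ± 0.23 in wild-type livers (adjusted p = 0.00207), with an interaction of -3.06 ± 0.33 (adjusted p = 0.000171). With the mean of all probe sets of a gene in place of the brightest, the difference in Atf6a-/- livers was -1.79 for Slc1a2, 1.93 for Gfpt1 and for Cad and, among the urea cycle genes, -5.86 for Otc. Aldh4a1, of proline breakdown, fell by 3.10 ± 0.24 in Atf6a-/- livers (adjusted p = 1.50e-06), and Oat, which turns ornithine toward glutamate, fell by 2.54 ± 0.25 (adjusted p = 9.08e-06). Both passed between the genotypes after TM as well, at -2.64 ± 0.24 (adjusted p = 1.47e-05) and -1.93 ± 0.25 (adjusted p = 0.000186). For enzymes that release nitrogen from amino acids, 0 of 11 measured were called higher and 6 lower with TM in Atf6a-/- livers (median -1.23). In wild-type livers 0 were higher and 1 lower (median -0.23). Of all genes, 15.2% were called higher and 12.8% lower with TM in Atf6a-/- livers, and 3.45% and 3.86% in wild-type livers. Hal, histidine ammonia-lyase, fell by 4.63 ± 0.46 in Atf6a-/- livers (adjusted p = 1.05e-05), Gldc, of glycine cleavage, by 4.08 ± 0.36 (adjusted p = 4.64e-06), and Aadat, an aminotransferase of lysine and tryptophan breakdown, by 2.86 ± 0.50 (adjusted p = 0.00076), or -3.47 without Atf6a-/- TM animal 3.

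**Figure D4:**
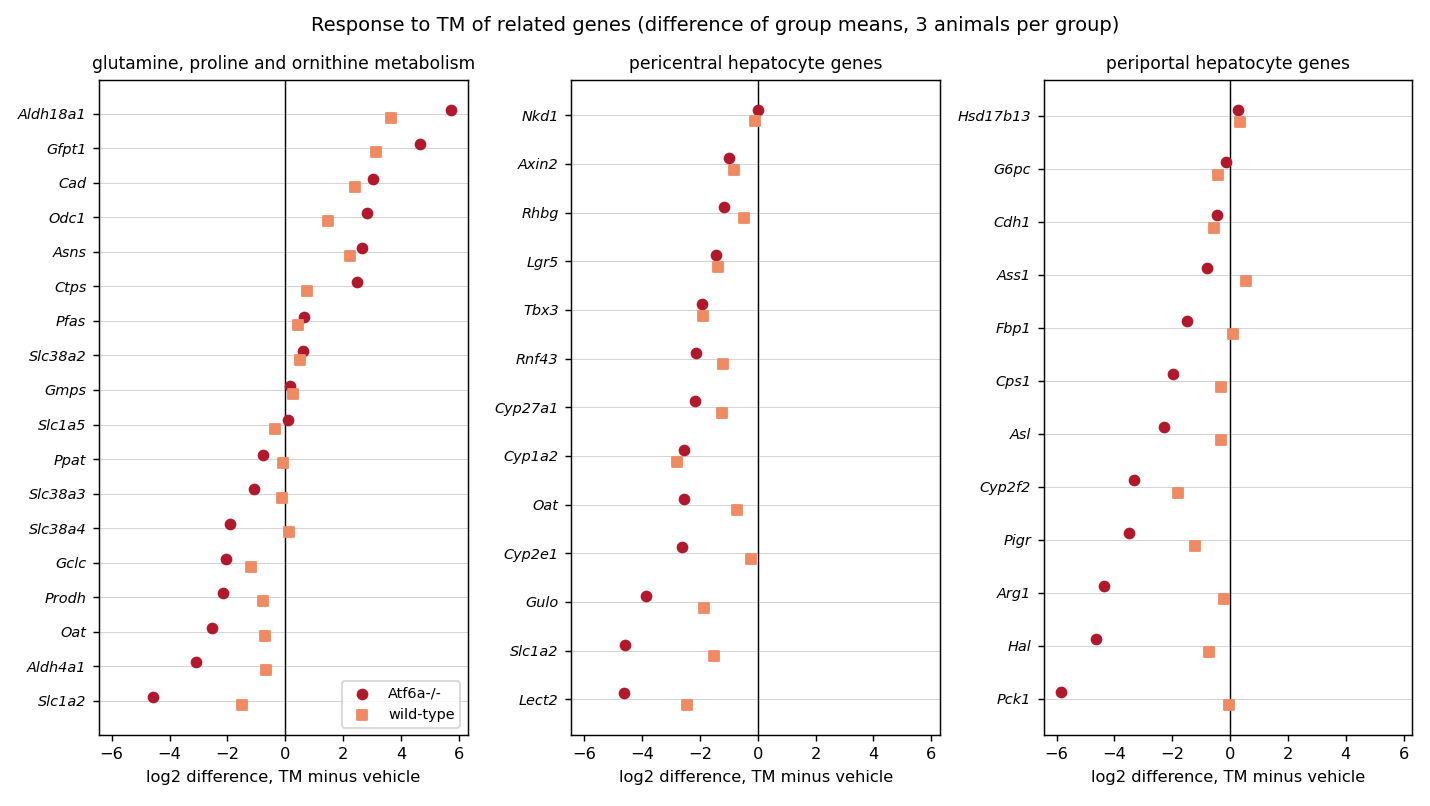
Log2 difference between TM and vehicle (horizontal axis) for genes of 3 related lists, sorted by the Atf6a-/- value, with Atf6a-/- as circles and wild-type as squares and each point a difference of means of 3 animals per group. Gfpt1 and Cad are high and Slc1a2 low in both genotypes of the left panel. The wild-type squares lie well under 0 for much of the pericentral list, where 9 of 13 were called, and near 0 for much of the periportal list, where 2 of 12 were called.

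The urea cycle genes belong to the periportal hepatocytes and Glul to the pericentral ones, and the lists of both zones were therefore counted. Of 13 measured pericentral genes, 12 were called lower with TM in Atf6a-/- livers and 9 in wild-type livers (medians -2.17 and -1.23), 7 were lower in Atf6a-/- than in wild-type livers after TM, and 6 had a called interaction. Of 12 measured periportal genes, 9 were called lower with TM in Atf6a-/- livers and 2 in wild-type livers (medians -2.12 and -0.32), 9 were lower in Atf6a-/- than in wild-type livers after TM, and 9 had a called interaction. The periportal list holds Cps1, Ass1, Asl and Arg1, so its Atf6a-/- and interaction counts partly repeat the calls given above. Its other genes called in those comparisons were Pck1, Fbp1, Hal, Cyp2f2 and Pigr. The pericentral list leaves out Glul, so the lists were not counted alike. None of either list was called higher. For all genes, the shares called lower were 12.8% with TM in Atf6a-/- livers and 3.86% in wild-type livers. They were 8.45% between the genotypes after TM and 6.69% for the interaction. No test set the zones against each other.

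Among pericentral genes, Lect2, Slc1a2 and Gulo fell most in Atf6a-/- livers. Cyp1a2, a drug-metabolising P450, fell by 2.53 ± 0.34 with TM in Atf6a-/- livers (adjusted p = 0.00012) and by 2.79 ± 0.34 in wild-type livers (adjusted p = 0.0005). Lect2, a secreted protein, fell by 4.62 ± 0.33 in Atf6a-/- livers (adjusted p = 8.91e-07) and fell by 2.45 ± 0.33 in wild-type livers (adjusted p = 0.000911). Tbx3, a Wnt target of the cells next to the central vein, fell by 1.92 ± 0.23 in Atf6a-/- livers (adjusted p = 4.66e-05). In wild-type livers it fell by 1.88 ± 0.23 (adjusted p = 0.000503). Its TM means of 5.00 and 5.26 lay close to the dim limit of 4.71. Axin2, Lgr5, Rnf43 and Nkd1 had means of 4.15 to 5.03 in Atf6a-/- TM livers and 4.82 to 5.22 in wild-type TM livers. For such genes a further fall in Atf6a-/- livers could hardly be seen, which limits the pericentral counts between the genotypes. Among periportal genes Pck1, the first committed enzyme of gluconeogenesis, fell by 5.86 ± 0.50 in Atf6a-/- livers (adjusted p = 3.41e-06) and differed by -0.04 ± 0.5 (adjusted p = 0.984) in wild-type livers, and its interaction was -5.82 ± 0.71 (adjusted p = 0.000369). Atf6a-/- TM animal 1 had 8.97 for Pck1 and the other 2 had 6.48 and 6.59. The Atf6a-/- difference was -6.67 without animal 1 and -4.30 with the mean of all probe sets. In wild-type livers the 2 periportal genes called lower were Cyp2f2 and Pigr. Their means were 11.83 and 11.78 after TM, against 13.63 and 13 after vehicle. Of the pericentral genes, Cyp2e1 was not called there, with means of 14.07 after TM and 14.31 after vehicle. In Atf6a-/- livers it was called lower, with 11.69 after TM and 14.32 after vehicle.

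Of 14 measured regulators of urea cycle genes, 2 were called higher and 6 lower with TM in Atf6a-/- livers (median -0.62). In wild-type livers 1 was higher and 4 lower (median -0.24). Among all genes, 15.2% were called higher and 12.8% lower with TM in Atf6a-/- livers, and 3.45% and 3.86% in wild-type livers. Cebpa, a factor of hepatocyte differentiation, measured 7.81, 9.07 and 8.43 in Atf6a-/- TM livers and 10.73, 10.61 and 10.63 in wild-type TM livers, against 12.06, 11.76 and 11.75 in Atf6a-/- vehicle livers and 12.04, 11.81 and 11.91 in wild-type vehicle livers. It fell in both genotypes without overlap, by 3.42 ± 0.24 in Atf6a-/- livers (adjusted p = 6.41e-07) and by 1.26 ± 0.24 in wild-type livers (adjusted p = 0.00659), with an interaction of -2.16 ± 0.33 (adjusted p = 0.00161). Ppargc1a, a coactivator of fasting metabolism, read 3.66, 3.81 and 4.37 in Atf6a-/- TM livers, under the dim limit, and 8.52, 7.60 and 8.36 in wild-type TM livers, against 7.90, 7.70 and 6.40 in Atf6a-/- vehicle livers and 7.39, 8.32 and 7.18 in wild-type vehicle livers. It was at least 6.16-fold lower with TM in Atf6a-/- livers (adjusted p = 4.70e-05) and at least 10.9-fold lower than in wild-type livers after TM (adjusted p = 2.36e-05), and its wild-type groups overlapped. Tcf7l2, a factor of the Wnt pathway that governs liver zonation, fell at least 2.45-fold in Atf6a-/- livers (adjusted p = 4.09e-06), where its mean of 4.31 was under the dim limit, and fell by 1.04 ± 0.15 in wild-type livers (adjusted p = 0.00129), a call lost with the mean of its probe sets. Ddit3 and Atf4, factors of the ER stress response, rose in Atf6a-/- livers by 6.38 ± 0.54 (adjusted p = 2.87e-06) and 2.23 ± 0.23 (adjusted p = 1.51e-05). In wild-type livers Ddit3 was also called higher, with a mean of 11.19 after TM against 6.95 after vehicle. Atf4 was not called there (11.09 against 10.36). The interaction was called for Atf4 and not for Ddit3. Of 10 genes that mark ER stress, 9 were called higher with TM in Atf6a-/- livers and 8 in wild-type livers, and 0 lower in either. After TM 3 were lower and 1 higher in Atf6a-/- than in wild-type livers, against 8.45% and 11.3% of all genes. The interaction was called lower for 3 (Derl3, Pdia4 and Herpud1) and higher for 0, against 6.69% and 7.56%. Wild-type TM animals varied widely for Atf3 (5.34, 12.37 and 10.27) and Ddit3 (9.81, 12.87 and 10.89).

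Markers of some cell types moved with TM, and their part in these results was not tested. Of all genes, 12.8% were called lower and 15.2% higher with TM in Atf6a-/- livers, and 3.86% and 3.45% in wild-type livers. Of 7 measured hepatocyte markers, 5 were called lower with TM in Atf6a-/- livers and 2 in wild-type livers, and their mean level per array ran from 12.88 to 13.08 in Atf6a-/- TM livers and 13.50 to 13.87 in wild-type TM livers, against 13.95 to 14.14 in Atf6a-/- vehicle livers and 14.10 to 14.17 in wild-type vehicle livers. Alb, albumin, lay near the top of the array in all groups, with means of 14.27 in Atf6a-/- TM livers and 14.68 in wild-type TM livers, against 14.75 in Atf6a-/- vehicle livers and 14.77 in wild-type vehicle livers. Of 7 measured neutrophil markers, 2 were called higher with TM in Atf6a-/- livers and 1 in wild-type livers. Their mean level ran from 5.63 to 6.34 in Atf6a-/- TM livers and 5.24 to 5.74 in wild-type TM livers. After vehicle it ran from 4.68 to 4.92 in Atf6a-/- livers and 4.84 to 5.10 in wild-type livers. The 2 were S100a8 and S100a9, with Atf6a-/- means of 9.52 and 9.07 after TM and 4.85 and 5.33 after vehicle. The median difference of the list there was 0.12, and 3 of the 7 had means under the dim limit in every group. Of 10 Kupffer cell and macrophage markers, 2 were called higher and 6 lower with TM in Atf6a-/- livers and 1 higher and 4 lower in wild-type livers. For lymphocytes, 0 of 7, and for cholangiocytes, 0 of 5 were called in either genotype with TM. Endothelial markers were called lower in 2 of 8, stellate cell and fibroblast markers in 3 of 9 and red cell markers in 1 of 3 with TM in Atf6a-/- livers, against 0, 1 and 0 in wild-type livers.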

How the data were processed

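RNA from 12 livers, 1 array per animal, was read as the deposited table of log2 values, which the authors made with RMA (the submitters' notes name affy and limma, without versions). RMA corrects background, sets all arrays to one distribution and summarises probes, so a change shared by all genes is removed. The array medians were 4.64 to 4.71. Scanner files were not used, so background correction and scan batch were not varied. Arrays give no read depth, and the number of animals limits the precision. Nothing in the labels says more on how the 3 animals of a group were housed or processed.

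All 45037 probe sets, after leaving out 64 control probe sets, were fitted with limma 3.58.1 in R 4.3.3 (1 mean per group, 5 contrasts, empirical Bayes, Benjamini-Hochberg adjustment within a contrast), and the scripts were tested on simulated data. Python 3.11.15 with numpy 2.4.6, pandas 2.3.3 and matplotlib 3.10.9 handled promoters and figures. Of the probe sets, 34945 had 1 gene symbol, 932 several and 9160 none. The share of genes called used 1 probe set per gene, the brightest.

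All 10 members were named, and from each related list up to 3 genes with the largest rise and 3 with the largest fall among those called in a comparison. The 3 genes most like each member were taken among those with a mean of at least 7. Members, lists and motifs were chosen with earlier results of these data known. Listed genes without a probe set of their own symbol were not analysed here. Alternatives were other normalizations and scalings, filters, probe set summaries, model terms, the methods' t-test and the omission of each animal.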

Additional observations from a re-analysis of the deposited data

Results flagged for a closer look

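For 7 of the 9 genes the response to TM differed between Atf6a-/- and wild-type livers by the interaction term in limma. The difference of the responses, Atf6a-/- minus wild-type on the log2 scale, was -6.80 for Otc, -4.14 for Arg1, -2.45 for Slc25a15, -1.97 for Asl, -1.91 for Glud1, -1.64 for Cps1 and -1.36 for Ass1. Those of Cps1 and Asl were lost in 11 and 4 of 24 alternatives. That of Ass1 came from its probe set of low signal. The brighter one shared with Gm5424 gave -0.37 ± 0.23, which limma did not call (adjusted p = 0.439). With groups of 3 animals, single outlying samples were not tested for, and each animal was left out in turn instead.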

How the results depend on the processing

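Of the members' values under alternatives, 240 of 243 for TM in Atf6a-/- livers, 224 of 243 for TM in wild-type livers, 233 of 243 for the genotypes after TM and 193 of 216 for the interaction kept their direction and side of the threshold. With the methods' t-test after Benjamini-Hochberg adjustment, 7 of the 9 genes passed for TM in Atf6a-/- livers (9 with limma), 0 for TM in wild-type livers (3) and 2 between the genotypes after TM (8). Over all probe sets that test called 1 in wild-type livers, against 2353 with limma, and 1253 between the genotypes after TM, against 6458. Without adjustment, at the study's limits of p under 0.05 and 1.5-fold, the t-test called 9 genes for TM in Atf6a-/- livers. It called 4 for TM in wild-type livers and 8 between the genotypes after TM. Over all probe sets the unadjusted t-test called 9199, 2580 and 5884 in that order. Direction turned only for differences in wild-type livers that were not called: with the spike-in shift Cps1 was at 0.00, Asl at 0.01, Arg1 at 0.10 and Slc25a15 at 0.11, and Asl ran from -0.72 to 0.00 when single animals were left out, 0.00 being the value without wild-type TM animal 2. The cause was not tested. Leaving out 1 animal at a time, 9 genes were called lower in every fit for TM in Atf6a-/- livers and 2 to 4 in wild-type livers. Between the genotypes after TM 8 to 9 were called, 5 to 8 for the interaction and 0 after vehicle. Over all probe sets these fits called 9052 to 9642, 1754 to 2502, 5236 to 7515 and 3191 to 6201 for the first 4 of these.

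The spike-in shift moved the median of all probe sets by 0.48 for TM in Atf6a-/- livers and 0.31 in wild-type livers, and the scaling to Btf3 and Ppia by -0.53 in Atf6a-/- livers and -0.09 in wild-type livers. For TM in Atf6a-/- livers 9480 probe sets were called, 17334 with the first scaling and 20714 with the second, and in wild-type livers 4493 with the first, against 2353 without it. Between the genotypes after TM the second gave 11198.

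Animals share replicate numbers across groups, but the labels do not say that these pair them. Deviations of same-numbered animals correlated at -0.18 to 0.37, above 0.1 in 8 of 18 pairs, and 6 of 12 arrays correlated best with their own number. With the replicate block 9 genes were called for TM in Atf6a-/- livers, 3 for TM in wild-type livers and 8 between the genotypes after TM. After vehicle 0 were called, and 6 for the interaction, where the call lost was that of Cps1 (adjusted p = 0.0568). Over all probe sets that fit called 9590, 2504, 6628, 1 and 4803 in the same order. With Xist as a covariate the counts of the 9 genes were the same, Cps1 again lost (adjusted p = 0.0585). Signal under the dim limit leaves lower bounds for the folds of Otc, Ppargc1a and Tcf7l2, whose Atf6a-/- TM means lie there, and of Aldh18a1, whose vehicle means do. With the mean of all probe sets the difference in Atf6a-/- livers was also smaller for Tbx3, at -1.10, and for Ddit3, at 4.32, both still called.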
